A study of Mus musculus with 23 samples.

Results

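Thy1, App and Mapt are the 3 mouse genes whose sequence is shared with the transgenes of the 3xTg mouse, a model of Alzheimer's disease (AD), and they were followed here in hippocampal RNA across 6 groups of mice. The members were the rows of the count table named Thy1, App or Mapt, which are 3 of its 55335 genes. Each symbol occurred on a single row. The 3xTg strain carries the human transgenes APPSwe and tauP301L, both driven by the neuron-specific Thy1.2 regulatory element of the mouse, which were injected together into embryos of a knock-in line. The knock-in allele lies at a further locus, on which nothing is reported here. All 3xTg mice carried all of these alleles, and no group carried a single transgene alone. The WT mice were of the hybrid background C57BL/6J x 129S1.

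Hippocampi of female mice were sequenced in 23 libraries, 1 per animal, of which 12 were 3xTg and 11 WT. At 8 months the mice were unoperated (4 WT-8M and 4 3xTg-8M mice). At 10 months they had been infused into the lateral ventricle for 28 days with 80 µM of an inhibitor of stearoyl-CoA desaturase (SCDi) or with its vehicle, 0.8% DMSO in artificial cerebrospinal fluid. These groups were WT-D (n = 4) and 3xTg-D (n = 4) with vehicle, and WT-S (n = 3) and 3xTg-S (n = 4) with SCDi. Both 8-month groups differ from the 10-month groups in age, in surgery and infusion, and in the series of animal numbers. The sample titles also carry an L or l before HPP at 8 months only, and the labels do not explain it. These differences cannot be told apart.

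Thy1 encodes a small protein held on the surface of neurons and of T cells by a glycosylphosphatidylinositol (GPI) anchor. Its regulatory element is widely used to drive transgenes in the mature neurons of the mouse brain. App encodes the amyloid precursor protein, a membrane protein whose cleavage by secretases releases amyloid-β, the main component of plaques. Mapt encodes tau, a protein that binds microtubules in axons and forms the neurofibrillary tangles of AD when it is heavily phosphorylated.

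In the coordinates of the mouse build GRCm38, Thy1 (ENSMUSG00000032011.5) lies on the + strand at chr9:44043384-44048579, and its annotated exons join into 5 blocks of 2995 bp in all. App (ENSMUSG00000022892.11) lies on the − strand at chr16:84949685-85173766, with 20 exon blocks of 12996 bp. Mapt (ENSMUSG00000018411.17) lies on the + strand at chr11:104231390-104332090, with 16 exon blocks of 7531 bp. No other annotated gene overlaps Thy1. App overlaps 5 small genes of the other strand, among them the antisense RNA gene Gm49227, and Mapt overlaps 3, among them the antisense RNA gene Gm11659. Whether the reads were counted by strand is not given in the sources used here. Reads that the counting marked as ambiguous, 0.898% to 1.03% of a library, are not in the values. What antisense transcripts add to the values of App and Mapt, or take from them, was not tested.

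The values are counts of reads per gene, given below as CPM, the count scaled to a common total of 1000000 gene counts in each library. Reads were aligned to the mouse genome alone. A read of a transgene transcript therefore enters these values where it matches the mouse gene, and what share of a value came from the transgenes was not tested. In bulk tissue, fewer cells of a type and less RNA per cell also cannot be told apart.

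The libraries held 12802267 to 36686413 gene counts at 8 months and 12992547 to 17575615 at 10 months. All 3 genes were abundant. The lowest count in any library was 8235 for Thy1, 21337 for App and 6418 for Mapt. The 14 neuron markers, such as Rbfox3 and Snap25, were all above 0 in every group and summed to 10804 to 12576 CPM. The 7 markers of T cells, which also carry Thy1, summed to 1.52 to 3.54 CPM in all libraries, and 1 of them passed the filter on low counts. The 5 fibroblast markers summed to 40.9 to 170 CPM. Which cells the Thy1 reads came from was not tested. In 2 libraries, 3xTg-8M replicate 4 and 3xTg-S replicate 2, expression rose less steeply with exon length (log2-log2 slope 0.652 and 0.681) than in the other 21 (at least 0.740), and values without them are given where they bear on a result.

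Thy1 was higher in 3xTg than in WT hippocampus in every setting, by factors of 2.69 to 3.58 between the group means. App was higher by factors of 1.25 to 1.34 and was called at 8 months and with vehicle, and Mapt passed the test nowhere. The question of these comparisons is how far the strain, the setting and the inhibitor moved the loci that the transgenes share.

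At 8 months, Thy1 stood at 522, 594, 633 and 611 CPM in the WT-8M libraries and at 2211, 1843, 2131 and 2263 CPM in the 3xTg-8M libraries. Every 3xTg library lay far above every WT library, and the lowest 3xTg value was 2.91 times the highest WT value. The means were 590 ± 48.1 CPM (SD, n = 4) and 2112 ± 188 CPM (SD, n = 4), a difference of 1522 ± 96.9 CPM (SE) and a ratio of 3.58. In the fit across all genes, the log2 fold change was 1.84 (SE 0.088, adjusted p = 4.27e-07, edgeR's quasi-likelihood test with Benjamini-Hochberg adjustment). Genes are called where this adjusted p is under 0.05. In this comparison 2.58% of the 15483 genes tested were called, 162 higher and 237 lower in 3xTg, and among them Thy1 ranked 6 by p-value. Among all genes ordered by CPM, it ranked 159 to 217 in the WT-8M libraries and 18 to 22 in the 3xTg-8M libraries.

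With vehicle at 10 months, Thy1 stood at 588, 627, 615 and 644 CPM in WT-D and at 1971, 1962, 1575 and 1679 CPM in 3xTg-D. The groups were again fully apart, the lowest 3xTg-D library being 2.45 times the highest WT-D library. The log2 fold change was 1.52 (SE 0.076, adjusted p = 5.74e-07, edgeR), in a comparison where 1.39% of genes were called.

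With SCDi, Thy1 stood at 634, 648 and 753 CPM in WT-S and at 1901, 2009, 1323 and 2054 CPM in 3xTg-S. The third 3xTg-S library was the lowest of all 12 3xTg libraries, but it too lay 1.76 times above the highest WT-S library. The log2 fold change was 1.42 (SE 0.13, adjusted p = 9.98e-05, edgeR), with 1.32% of genes called. Without that library it was 1.55 (adjusted p = 2.20e-06). Against the vehicle-treated WT mice, the comparison the study used to ask which genes SCDi brought back towards WT, Thy1 in 3xTg-S remained higher by 1.54 (SE 0.11, adjusted p = 4.82e-06, edgeR), with 2.29% of genes called.

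App differed less, but as evenly. It stood at 1629, 1691, 1655 and 1725 CPM in WT-8M and at 2305, 2195, 2365 and 2102 CPM in 3xTg-8M. No 3xTg-8M library reached down to the WT range, the lowest being 1.22 times the highest WT library. The means were 1675 ± 41.7 and 2242 ± 117 CPM (SD, n = 4 each), which is a difference of 567 ± 61.9 CPM (SE). The log2 fold change was 0.42 (SE 0.058, adjusted p = 0.00196, edgeR).

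With vehicle, App stood at 1698, 1716, 1623 and 1701 CPM in WT-D and at 2337, 2431, 2139 and 2122 CPM in 3xTg-D. The groups did not overlap, and the log2 fold change was 0.41 (SE 0.059, adjusted p = 0.00322, edgeR). The difference of the means, 573 ± 78.5 CPM (SE), was close to that at 8 months.

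With SCDi, App stood at 1642, 1724 and 1744 CPM in WT-S and at 2200, 2018, 1926 and 2368 CPM in 3xTg-S. The 3xTg-S libraries all lay above the WT-S libraries, the lowest by a factor of 1.10. The log2 fold change of 0.32 (SE 0.076) did not pass (adjusted p = 0.0791, edgeR; unadjusted p = 0.00127). It passed with DESeq2 (adjusted p = 0.0022), with all 10-month libraries in one fit (adjusted p = 0.0322) and with no filter on low counts (adjusted p = 0.000214). Other alternative fits that kept all libraries did not pass, with an adjusted p of up to 0.430 (edgeR). Against WT-D the log2 fold change was also 0.32 (SE 0.071) and passed (adjusted p = 0.0345, edgeR), but leaving out any one of 6 of the 8 libraries, which are all 4 of WT-D and replicates 1 and 4 of 3xTg-S, moved the adjusted p to between 0.0664 and 0.122. With a block for runs of 4 animal numbers it was 0.0608.

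Mapt, the mouse counterpart of the tau transgene, was not called in any comparison. At 8 months it stood at 498, 546, 546 and 538 CPM in WT-8M and at 572, 575, 581 and 562 CPM in 3xTg-8M. These ranges did not overlap, although the lowest 3xTg value was only 1.03 times the highest WT value. The log2 fold change was 0.11 (95% confidence interval −0.0079 to 0.22, adjusted p = 0.319, edgeR).

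With vehicle, Mapt stood at 478, 549, 504 and 536 CPM in WT-D and at 544, 548, 485 and 529 CPM in 3xTg-D. These groups overlapped almost completely, and the log2 fold change was 0.01 (95% confidence interval −0.11 to 0.14, edgeR). With SCDi it stood at 494, 524 and 518 CPM in WT-S and at 543, 580, 539 and 559 CPM in 3xTg-S. The 3xTg-S libraries again lay above WT-S, by 0.12 on the log2 scale (95% confidence interval −0.0020 to 0.23, adjusted p = 0.484, edgeR). The upper end of each interval in the strain comparisons lies below the log2 fold change that App showed in the same comparison.

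**Figure D1:**
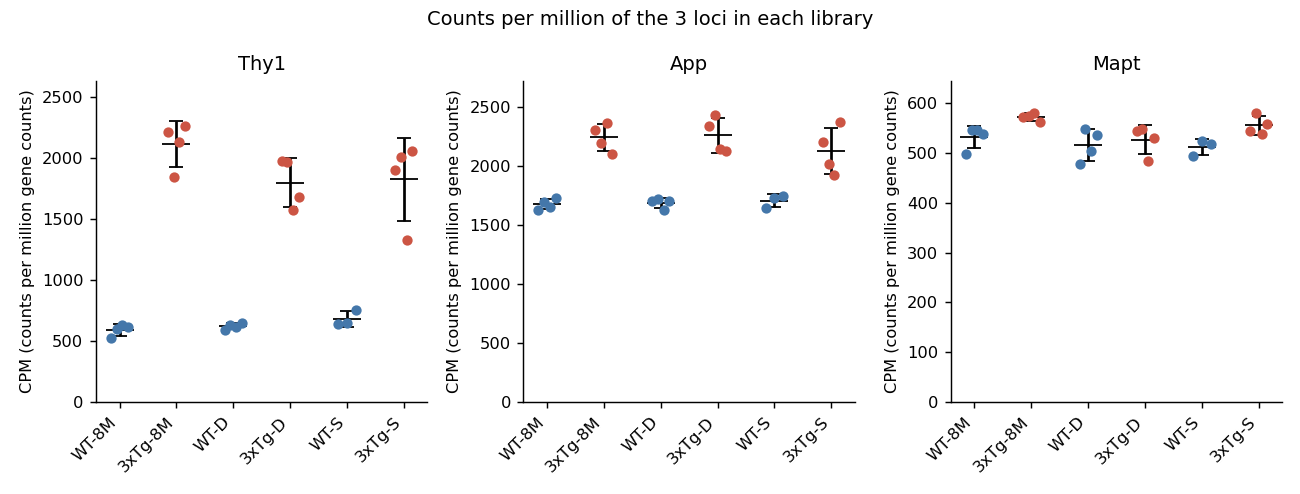
Level in CPM (y axis) of Thy1, App and Mapt in each library, by group (x axis), with WT libraries in blue and 3xTg libraries in red. Horizontal bars and whiskers are the group mean ± SD (n = 4, WT-S n = 3), and each y axis starts at 0. Thy1 lies between 522 and 753 CPM in WT and between 1323 and 2263 CPM in 3xTg, App between 1623 and 1744 CPM and between 1926 and 2431 CPM, and the Mapt ranges of the strains come close or overlap.

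SCDi moved none of the 3 genes past the test within a strain. In 3xTg mice the log2 fold change of 3xTg-S against 3xTg-D was 0.01 for Thy1 (95% confidence interval −0.26 to 0.28), −0.09 for App (−0.26 to 0.07) and 0.07 for Mapt (−0.05 to 0.19). The ranges of the treated and vehicle libraries overlapped for all 3. In WT mice it was 0.12 for Thy1 (−0.02 to 0.25), 0.0018 for App (−0.11 to 0.11) and −0.03 for Mapt (−0.15 to 0.09). These intervals exclude a change by SCDi as large as the strain difference of Thy1, while for App the lower end of the interval in 3xTg reaches more than midway to the strain difference with vehicle.

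In neither inhibitor comparison was any gene called by edgeR (0% of 15530 genes in 3xTg and 0% of 15724 in WT), although 1733 and 538 genes had an unadjusted p under 0.05, and DESeq2 called 14 and 0. The interaction of strain and inhibitor was −0.10 for Thy1, −0.09 for App and 0.10 for Mapt on the log2 scale, each with a 95% confidence interval that spans 0. No gene was called for it either (0% of 16262 genes, 377 at an unadjusted p under 0.05, none by DESeq2).

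The strain difference of Thy1 was smaller with vehicle at 10 months than in the untreated mice of 8 months, by 0.32 on the log2 scale (difference −0.32, 95% confidence interval −0.57 to −0.07). This interaction of strain and setting had an unadjusted p of 0.0166 and did not pass the adjustment over all genes (adjusted p = 0.470, edgeR), where 0.0621% of 16108 genes were called. The 3xTg-8M libraries, at 1843 to 2263 CPM, overlapped the 3xTg-D libraries at 1575 to 1971 CPM. The same interaction was −0.012 for App (95% confidence interval −0.18 to 0.16) and −0.090 for Mapt (−0.25 to 0.07).

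Ordered by mean level, Thy1 ran from 3xTg-8M (2112 CPM) through 3xTg-S (1822), 3xTg-D (1796), WT-S (678) and WT-D (619) to WT-8M (590). The one step in this order at which the ranges did not overlap was that between the strains. For App the order was 3xTg-D (2257 CPM), 3xTg-8M (2242), 3xTg-S (2128), WT-S (1704), WT-D (1684) and WT-8M (1675), and again neighbouring groups overlapped except across the strains. For Mapt it was 3xTg-8M (572 CPM), 3xTg-S (555), WT-8M (532), 3xTg-D (527), WT-D (517) and WT-S (512), so that the strains interleave. The spread between mice was widest for Thy1 and App in 3xTg-S, with standard deviations of 339 and 196 CPM against 64.8 and 54.2 CPM in WT-S.

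**Figure D2:**
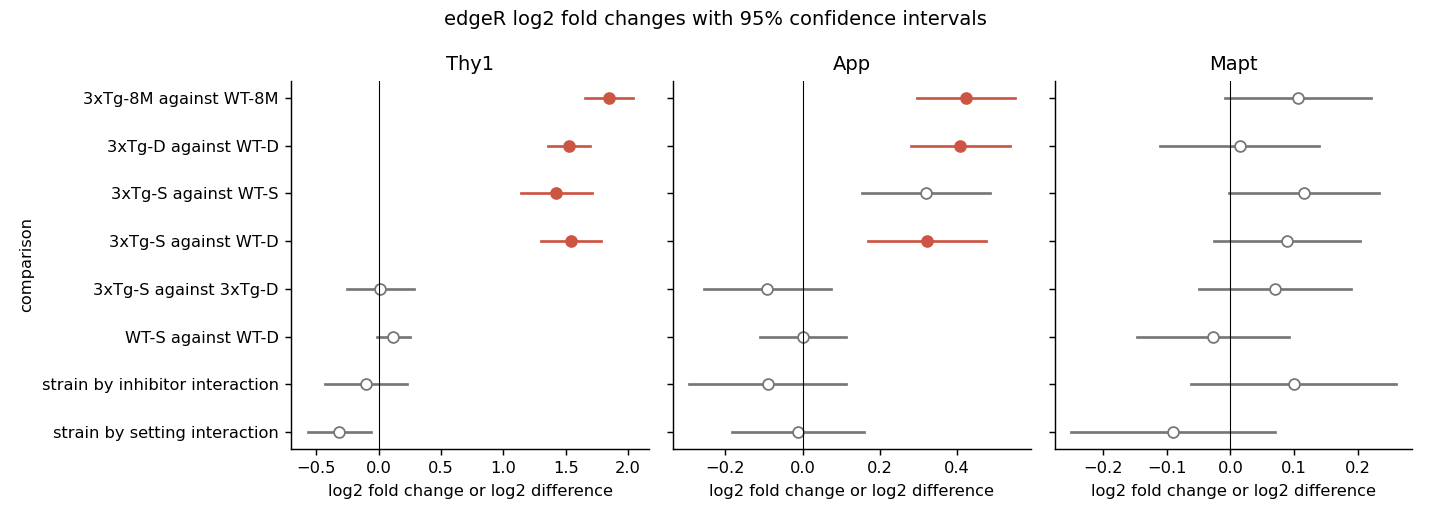
Log2 fold changes of Thy1, App and Mapt with 95% confidence intervals (x axis, a scale of its own for each gene) in the 6 comparisons of groups, and log2 differences in the 2 interactions (y axis), from edgeR. Filled red points have an adjusted p under 0.05 and open grey points do not; the 4 comparisons of 3xTg with WT are called for Thy1, 3 of them for App and none for Mapt.

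The ratio of 2 genes within a library does not depend on how the library was scaled, and it separated the 3 loci. In counts, the WT-8M libraries held 0.320, 0.351, 0.382 and 0.354 reads of Thy1 per read of App, and the 3xTg-8M libraries held 0.959, 0.840, 0.901 and 1.08. Thy1 thus rose against App as well as against the library. On the log2 scale the ratio was higher in 3xTg by 1.42 at 8 months, by 1.11 with vehicle and by 1.09 with SCDi (adjusted p = 0.0468 each, two-sided exact permutation test, Benjamini-Hochberg over 18 tests). The exact p of each was 0.029, the smallest that 4 against 4 or 3 against 4 libraries allow. The adjusted p thus depends on how many of the 18 tests reach this smallest value, and not on the size of a difference. The 18 tests share genes and groups and are not independent. Without the libraries of low length slope, the log2 difference was 1.36 at 8 months (without 3xTg-8M replicate 4) and 1.01 with SCDi (without 3xTg-S replicate 2).

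The ratio of Mapt to App moved the other way. It was 0.306, 0.323, 0.330 and 0.312 reads of Mapt per read of App in WT-8M and 0.248, 0.262, 0.246 and 0.267 in 3xTg-8M, with no overlap. On the log2 scale it was lower in 3xTg by 0.31 (difference −0.31) at 8 months and by 0.39 (difference −0.39) with vehicle (adjusted p = 0.0468 each, exact permutation test). With SCDi the difference of −0.20 did not pass (adjusted p = 0.110, exact permutation test). Without any one of the 4 WT-D libraries, the adjusted p with vehicle of this ratio and of Thy1 to App rose to 0.051 (exact permutation test). Their exact p stayed at 0.029, the smallest possible value, so only the adjustment moved. The ratios at 8 months kept an adjusted p of 0.0468 (exact permutation test) without any one library. Because the adjustment depends on the other tests, this contrast cannot show which setting is the more robust.

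Between SCDi and vehicle, the ratio of Thy1 to Mapt in WT mice was 1.28, 1.24 and 1.45 reads per read in WT-S and 1.23, 1.14, 1.22 and 1.20 in WT-D. The ranges were apart by little, and the log2 difference of 0.14 had an adjusted p of 0.0468 (exact permutation test). It was 0.07 without the third WT-S library, the highest of the group, and no test of 2 against 4 libraries can pass. The ratio of Thy1 to App in the same mice overlapped, with a log2 difference of 0.11 (adjusted p = 0.137, exact permutation test). In WT, which of the 3 genes is the most abundant per length depends on the length used. By all annotated exons the order in WT was Thy1, App, Mapt, with group means of 197 to 226, 129 to 131 and 67.9 to 70.7 CPM per kb. By the principal coding transcript, of 1735, 3176 and 1362 bp, it was App first, with 527 to 536 CPM per kb, and Thy1 (339.97 to 390.9) and Mapt (376 to 390.7) were not separable. In 3xTg, Thy1 came first by either length. Its group means were 600 to 705 CPM per kb by all exons and 1035 to 1217 by the principal transcript. Those of App were 164 to 174 and 670 to 711 CPM per kb.

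Across the 23 libraries Thy1 and App had a Pearson r of 0.96 over log2 CPM, and App was the third most similar gene to Thy1 among 11650 genes that averaged 5 CPM or more. The libraries fall into the 2 strains on both genes, so this r mostly restates the strain difference. Within the strains, the deviations of Thy1 and App from their group means had an r of 0.65 over the 12 3xTg libraries and of 0.54 over the 11 WT libraries. Without the 2 libraries farthest on Thy1 these were 0.53 and 0.30. The values share a library and its total, and they are given as a description only. Of the 3xTg libraries, the third 3xTg-S library was the lowest of the 12 on both genes.

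**Figure D3:**
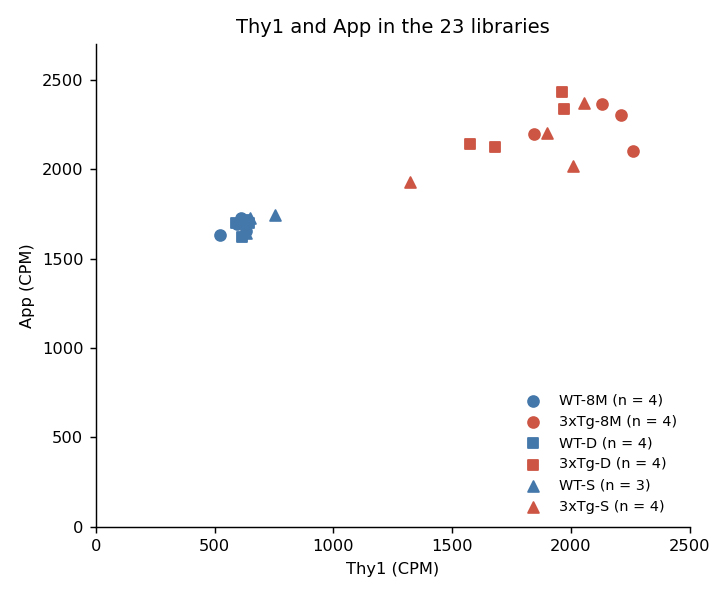
Thy1 (x axis) and App (y axis) in CPM in each of the 23 libraries, both axes starting at 0, with WT in blue, 3xTg in red, circles for 8 months, squares for vehicle and triangles for SCDi at 10 months. The strains form clusters that are apart on both axes; the 3xTg triangle nearest to WT is 3xTg-S replicate 3, at 1323 CPM of Thy1 and 1926 CPM of App.

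The other genes most like Thy1 over the 23 libraries were Esd, an esterase gene on chromosome 14 (r = 0.97), Lrrfip2 on chromosome 9 (0.96), and Chil1, which encodes a chitinase-like protein, and Lgr6, a receptor gene, both on chromosome 1 (0.94 each). Their means were higher in 3xTg, as with Esd at 62.8 CPM in 3xTg and 35.3 CPM in WT, and Lgr6 at 18.1 and 3.82 CPM. Among the genes most like App were Thy1 (0.96), Sap130 (0.93), Lgr6 and Pcdhga4 (0.91 each). These genes, too, were chosen by a pattern that the strains dominate. By deviations from the group means the list for Thy1 was a different one, led by Prnp (0.83), Mrpl40 (0.82) and the neuronal enolase gene Eno2 (0.80). None of these 3 was among the 5 nearest by the first measure. Most like Mapt were Mfge8 and Cryab (0.86 each), then Elavl3 (0.79), H2afx and Aven (0.78 each). Mfge8 encodes a secreted milk fat globule protein, Cryab a small heat shock protein and Elavl3 a neuronal RNA-binding protein. Cryab also ranked 4 by deviations from group means.

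The neighbours of each locus on the chromosome were compared in the same fits. At Thy1, the 10 nearest tested genes, 5 on each side, reached from Arhgef12 to Cbl. None of them was called at 8 months or with vehicle by edgeR. An unadjusted p under 0.01 (edgeR) was found for 2 of the 10 at 8 months, 3 with vehicle and 3 with SCDi. Of all genes tested, 6.88%, 4.95% and 4.14% had such a p. Usp2, a deubiquitinase gene 35.3 kb from Thy1 by midpoints, had log2 fold changes of −0.12, −0.30 and −0.28 in the 3 strain comparisons (adjusted p = 0.338, 0.0945 and 0.190, edgeR). Mcam, which encodes an adhesion molecule of vessel walls, had −0.39, −0.39 and −0.17, and none passed. Cbl, a ubiquitin ligase gene, lay the other way, with 0.09, 0.25 and 0.32 (adjusted p = 0.712, 0.0807 and 0.209, edgeR). Gm36855 had −1.10 at 8 months (adjusted p = 0.0554), −0.66 with vehicle and −0.0039 with SCDi. The median over the 10 genes was 0.0036 at 8 months and −0.11 with vehicle, against 0.0060 and −0.0029 over all genes tested.

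With SCDi, 1 of these neighbours was called, the ubiquitin ligase gene Rnf26, which was higher in 3xTg-S than in WT-S by 0.97 (SE 0.18, adjusted p = 0.0220, edgeR). Rnf26 is a low gene, with 26 to 29 counts in WT-S and 53 to 66 in 3xTg-S. Its CPM was 1.89 to 2.16 in WT-S, below the 2.71 to 4.38 CPM of the 20 libraries of the other groups. It was not called at 8 months or with vehicle, and leaving out any one of 5 of the 7 libraries, which are WT-S replicates 2 and 3 and 3xTg-S replicates 1, 2 and 3, took its adjusted p over 0.05 (up to 0.0925). A block for runs of 4 animal numbers did so too (adjusted p = 0.152, edgeR).

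Around App, 1 of 10 neighbours was called at 8 months. This was Adamts1, a gene for a secreted metalloprotease that cleaves proteoglycans, which was lower in 3xTg by 0.67 (log2 fold change −0.67, SE 0.10, adjusted p = 0.00314, edgeR). It stood at 23.6 to 28.8 CPM in WT-8M and at 14.04 to 19.4 CPM in 3xTg-8M, with no overlap and in the direction opposite to App. With vehicle its log2 fold change was −0.37 (adjusted p = 0.0834) and with SCDi −0.21 (adjusted p = 0.557). The antisense gene Gm49227 inside App had a log2 fold change of 1.02 at 8 months that did not pass (adjusted p = 0.0722), of 0.47 with vehicle and of −0.07 with SCDi. It had 8 to 117 counts in a library.

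Around Mapt no neighbour was called in the strain comparisons. Nsf, a gene of the vesicle fusion machinery, had log2 fold changes of −0.08, −0.13 and −0.14. Itgb3, an integrin gene, had 0.06, 0.33 and 0.47. Over the 30 neighbours, 1 gene was called at 8 months, none with vehicle and 1 with SCDi by edgeR, beside 2.58%, 1.39% and 1.32% of all genes tested. DESeq2 called 2 of the 30 at 8 months and 5 with vehicle, beside 4.42% and 2.49% of all genes.

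**Figure D4:**
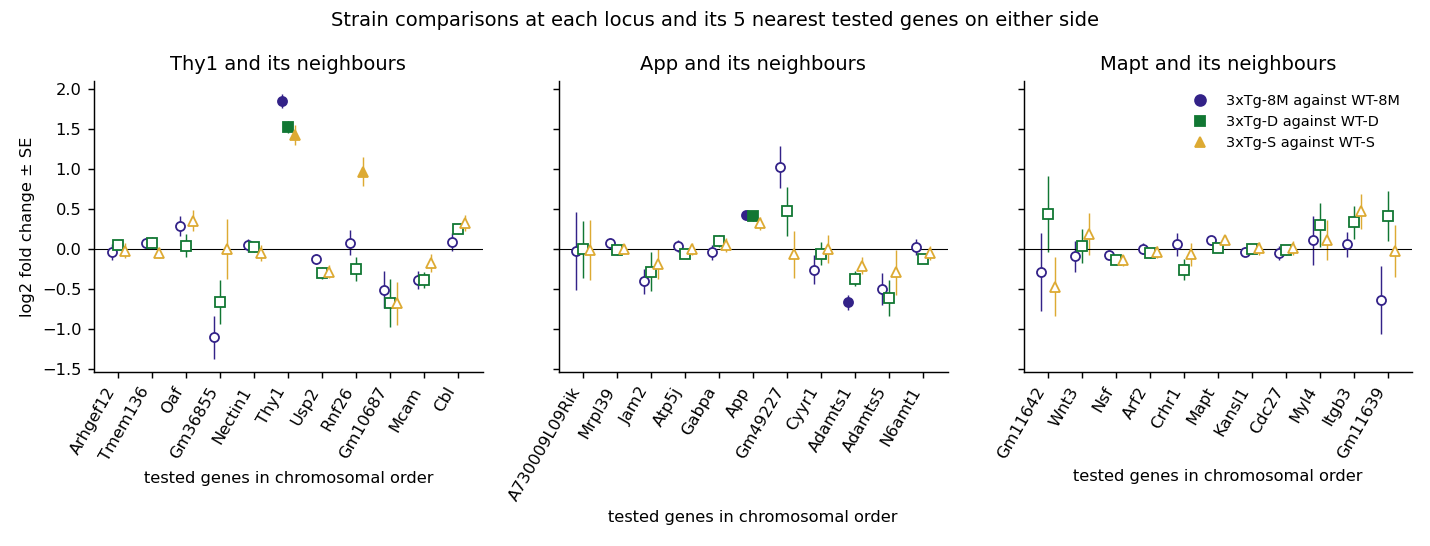
Log2 fold change ± SE (y axis) of Thy1, App and Mapt and of their 5 nearest tested genes on either side (x axis, in chromosomal order, not to distance) in the 3 strain comparisons, from edgeR; filled symbols have an adjusted p under 0.05. Thy1, from 1.42 to 1.84, and App, from 0.32 to 0.42, stand above most neighbours, of which Rnf26 with SCDi and Adamts1 at 8 months are the only ones called.

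The proteins of these loci act within larger families, which were counted from lists. Of 14 genes of the APP family and of proteins that bind APP, none was called at 8 months, with vehicle or with SCDi, and the median log2 fold changes were 0.0051, −0.06 and −0.06, beside 0.0060, −0.0029 and 0.0037 over all genes tested. The most abundant of them per length, Aplp1, the neuronal relative of App, had a mean of 334 CPM per kb, and Itm2b, whose product binds APP, had 297 CPM per kb. Of 15 genes for microtubule-associated proteins, relatives of tau by function, none was called, with medians of −0.11, −0.04 and −0.07. Map1b and Map1a, which stabilise the axonal and dendritic microtubules, led this list with 110 and 106 CPM per kb. Of 18 genes for the kinases and phosphatases of tau, among them Gsk3b and Cdk5, none was called, with medians of 0.02, −0.05 and −0.04. Ppp2r2c and Ppp2ca, subunits of the phosphatase PP2A, were the most abundant at 112 and 65.0 CPM per kb.

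Of 17 other genes for GPI-anchored proteins of the neuronal surface, 1 rose and 1 fell at 8 months, and 1 rose with vehicle and with SCDi. The gene that rose was in each case Lypd1, which encodes a modulator of nicotinic acetylcholine receptors. It stood at 119 to 140 CPM in WT-8M and at 184 to 202 CPM in 3xTg-8M, and its log2 fold change was 0.65 (SE 0.061, adjusted p = 9.27e-05, edgeR). With vehicle the log2 fold change was 0.46 (adjusted p = 0.00629) and with SCDi 0.49 (adjusted p = 0.0253), which leaving out any one of 4 of the 7 libraries, WT-S replicates 2 and 3 and 3xTg-S replicates 1 and 3, moved to between 0.0580 and 0.114. The block for runs of 4 animal numbers also ended the call of Lypd1 with SCDi (adjusted p = 0.144, edgeR). The gene that fell was Cntn1, for the axonal adhesion molecule contactin, by 0.25 at 8 months (log2 fold change −0.25, adjusted p = 0.0424, edgeR). Its call was lost without any one of 6 of the 8 libraries, which are WT-8M replicates 1, 2 and 4 and 3xTg-8M replicates 1, 2 and 3 (adjusted p up to 0.132). Prnp, the prion protein gene and the most abundant of the list at 397.02 CPM per kb, had log2 fold changes of 0.03, −0.05 and −0.02. Over the 64 genes of the 4 lists, shares of genes called were thus 2 of 64, 1 of 64 and 1 of 64, beside 2.58%, 1.39% and 1.32% of all genes tested.

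**Figure D5:**
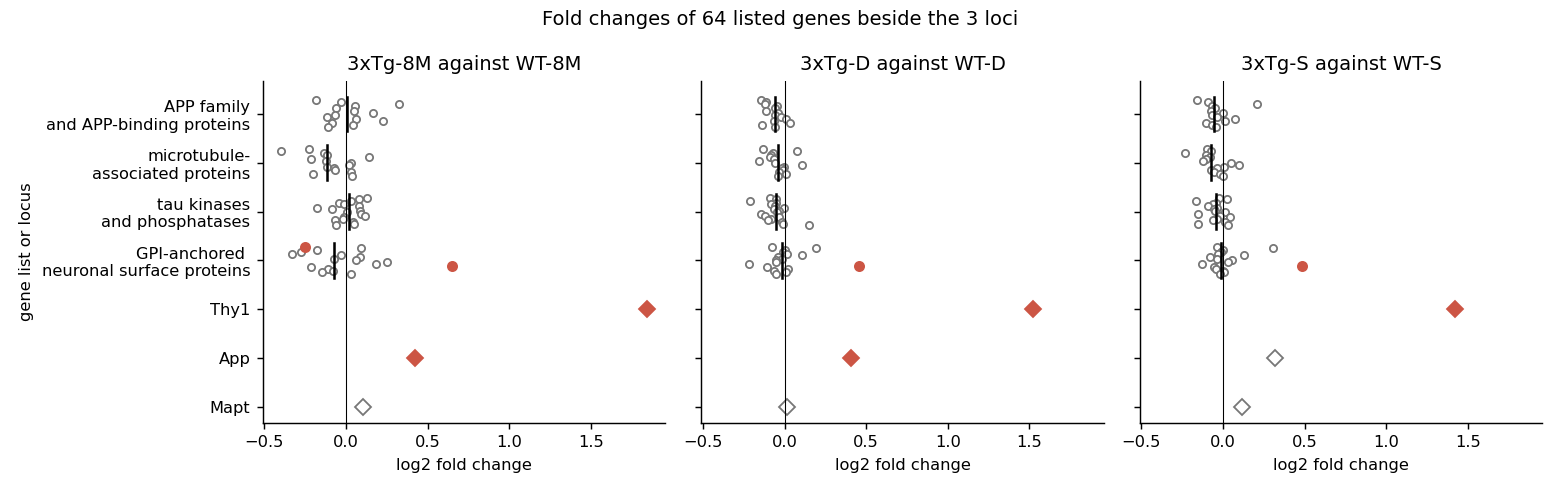
Log2 fold changes (x axis) of 64 genes in 4 lists and of Thy1, App and Mapt (y axis) in the 3 strain comparisons, from edgeR. Circles are listed genes, vertical black bars the list medians and diamonds the 3 loci; red, filled symbols have an adjusted p under 0.05, which among the listed genes are Lypd1 in all 3 comparisons and Cntn1 at 8 months.

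Markers of the cells in the tissue were compared beside these results. The 14 neuron markers summed to 11040 to 12543 CPM in WT-8M and 10804 to 11610 CPM in 3xTg-8M, to 11739 to 12456 and 11056 to 11555 CPM with vehicle, and to 11669 to 12576 and 10857 to 11738 CPM with SCDi. With vehicle these summed ranges of the strains did not overlap, while at 8 months and with SCDi they did. None of the 14 was called in these comparisons, and their median log2 fold changes were −0.05, −0.10 and −0.07, while those of Thy1 were above 1. Only 6, 1 and 2 of the 14 had a log2 fold change above 0, so most were lower in 3xTg. Of the 8 markers of hippocampal principal neurons, C1ql2, a marker of dentate granule cells, was lower in 3xTg in all 3 comparisons, by 1.04, 1.37 and 1.45 on the log2 scale (log2 fold changes −1.04, −1.37 and −1.45). Spink8, a marker of CA1 pyramidal cells, was higher at 8 months (1.52, adjusted p = 0.00421), and Wfs1, another, was lower with SCDi (−0.50, adjusted p = 0.00785). An unadjusted p under 0.01 (edgeR) was reached by 2 of the 8 at 8 months, 5 with vehicle and 3 with SCDi. Of all genes tested, 6.88%, 4.95% and 4.14% reached it. The highest log2 fold changes of the 8 with vehicle and with SCDi, 1.06 and 0.78, were not called. Of 6 microglia markers, none was called at 8 months, 1 rose with vehicle and 2 rose with SCDi, and of 6 oligodendrocyte markers 2 rose with SCDi, in comparisons where 2.58%, 1.39% and 1.32% of all genes were called. The summed choroid plexus markers ranged from 28.9 to 360 CPM over the libraries. The part of these cell types in the values of Thy1, App and Mapt was not tested. Without the libraries of low length slope, the log2 fold changes of Thy1 and App were 1.80 and 0.44 at 8 months and 1.38 and 0.35 with SCDi.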

How the data were processed

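Hippocampal RNA of 23 mice was measured by mRNA sequencing from 1 read end. Per the study's methods and the submitters' processing notes, the authors trimmed reads with Trimmomatic 0.35, aligned them with STAR 2.5.1b to GRCm38 and counted them per gene. The deposited values are raw counts, with no normalisation, filter or pooling. The use of strand and of molecular identifiers in counting is not given in the sources used here. Lines that name no gene held 24.7% to 30.9% of the reads of a library and were left out. No libraries were identical. Nothing in the labels ties libraries to cages or litters, and replicates were taken to be single animals.

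For a comparison, the libraries of its groups alone were fitted with edgeR 4.0.16 (R 4.3.3): filterByExpr, TMM scaling, quasi-likelihood test, Benjamini-Hochberg adjusted p under 0.05 over all genes tested. Interactions were fitted over 4 groups. A standard error is the log2 fold change over the square root of F. CPM use the sum of gene counts with no TMM factor. Exon lengths were taken from Gencode M21, with GRCm38 spans equal to those in the table for the 3 loci. Within-library ratios were tested by two-sided exact permutation with adjustment over 18 tests. The smallest exact p is 0.029 for 4 against 4 and for 3 against 4 libraries. The code was tested on simulated data. Comparisons share control groups, as 3xTg-S and WT-D each enter several.

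The members, gene lists, tests and alternatives were chosen with earlier results of these data known. Named genes were the members, the 5 most similar by Pearson r (1 of those for App is not reported here), the 5 nearest tested genes on each side, and listed genes that were called or the 2 most abundant per length of a list. Gm49227 is such a neighbour. Gm11659, the Prnp, Mrpl40 and Eno2 values by deviations, and the marker genes were added after their values were seen. The alternatives were DESeq2 size factors, no filter, the DESeq2 1.42.0 likelihood ratio test, the study's threshold of unadjusted p under 0.01, one fit of 15 libraries, a block for runs of 4 animal numbers, library sizes without the members, and each replicate left out. The principal transcript as length was added after seeing the data.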

Additional observations from a re-analysis of the deposited data

Results flagged for a closer look

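In groups of 4 libraries, a value was marked where its gap to the nearest other library exceeded Dixon's 95% critical value, as a share of the range of the group. Over 30 such groups of values (CPM of the 3 genes and the 3 within-library ratios) 2 were marked, and chance marks about 1 in 20. Mapt in WT-8M had its lowest library, replicate 1, at 498 CPM against 538 to 546 CPM in the other 3, a gap of 0.836 of the range. The log2 ratio of Thy1 to Mapt per length in 3xTg-S was lowest in replicate 3, at 2.63 against 3.12 to 3.21 in the other 3, a gap of 0.852 of the range on this log2 scale, on which the ratios were examined. Without WT-8M replicate 1, the log2 fold change of Mapt at 8 months was 0.07. Without 3xTg-S replicate 3, the ratio of Thy1 to Mapt differed from that of WT-S by 1.42 in place of 1.29 on the log2 scale.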

How the results depend on the processing

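The calls of Thy1 in the strain comparisons, and those of App at 8 months and with vehicle, kept their direction and side of the threshold under every alternative run. Without 1 replicate, Thy1 ranged from 1.78 to 1.91, from 1.48 to 1.60 and from 1.36 to 1.55 on the log2 scale. With SCDi, App against WT-S (0.32, adjusted p = 0.0791, edgeR) passed with no filter (0.32, adjusted p = 0.000214), with DESeq2 (0.32, adjusted p = 0.0022), at an unadjusted p under 0.01 (0.32) and in one fit of 15 libraries (0.32, adjusted p = 0.0322). Across the alternatives that kept all libraries, its adjusted p reached 0.430 (edgeR). Without 1 replicate, the log2 fold change of App ranged from 0.26 to 0.36, and App passed only without 3xTg-S replicate 3. Against WT-D it was lost with the block for runs (0.32, adjusted p = 0.0608, edgeR) and ranged from 0.26 to 0.36 without 1 replicate.

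Values near 0 changed sign. Thy1 in 3xTg-S against 3xTg-D was −0.00098 with the block and −0.053 to 0.14 without 1 replicate. App in WT-S against WT-D was −0.0031 with DESeq2 size factors and with DESeq2, −0.013 with no filter, −0.00011 in one fit, and −0.012 to 0.018 without 1 replicate. Without 1 replicate, Mapt with vehicle ranged from −0.014 to 0.071, the strain by inhibitor value of Thy1 from −0.17 to 0.017, the strain by setting value of App from −0.048 to 0.020, Rnf26 at 8 months from −0.012 to 0.14 and Cntn1 with SCDi from −0.089 to 0.015. The cause was not tested.

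Of the 30 neighbours, 4, 4 and 3 were called at 8 months, with vehicle and with SCDi with no filter. The share of all genes called is not given for that setting, so no excess can be read from these counts. At an unadjusted p under 0.01 the counts were also 4, 4 and 3, where 6.88%, 4.95% and 4.14% of all genes tested passed. DESeq2 called 2 at 8 months and 5 with vehicle, beside 4.42% and 2.49% of all genes, and the block left 0 with SCDi. Without 1 replicate the counts were 1 to 2, 0 to 1 and 0 to 1. Without 1 replicate, the log2 ratio of Thy1 to App differed by 1.08 to 1.15 with vehicle and by 1.13 to 1.30 between 3xTg-S and WT-D. That of Mapt to App differed by −0.43 to −0.37 with vehicle. That of Thy1 to Mapt differed by 1.47 to 1.54 with vehicle, by 1.37 to 1.56 between 3xTg-S and WT-D, and by −0.13 to 0.060 between 3xTg-S and 3xTg-D. The calls with vehicle were lost without any one of the 4 WT-D libraries, and those between 3xTg-S and WT-D without any one of the 8 libraries (adjusted exact permutation p of 0.051 to 0.057). Their unadjusted exact p stayed at 0.029, and the adjustment over the 18 tests moved.

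Over all genes, no filter called 854, 792 and 729 genes in the 3 strain comparisons, 1135 between 3xTg-S and WT-D, and 112, 2, 8 and 33 for the inhibitor in 3xTg, in WT and the interactions with inhibitor and setting. An unadjusted p under 0.01 gave 1066, 769, 649, 1026, 59, 57 and 352, and 2.52% of the genes for the inhibitor in 3xTg. DESeq2 called 684 at 8 months, 2.49% of the genes with vehicle, 577 between 3xTg-S and WT-D, 14 for the inhibitor in 3xTg and 21 for the setting. One fit called 355 with vehicle and the block 78 with SCDi. Without 1 replicate the counts ranged from 227 to 449, 125 to 200, 105 to 286, 155 to 341, 0 to 1, 0 to 1 and 6 to 17 in the same order, leaving out the interaction with inhibitor.

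No paired analysis was possible because the groups share no animal number in the labels, so that no animal of one group has a partner in another. The block for runs of 4 animal numbers, which was fitted, groups libraries by number and pairs no animals. Deviations of libraries of the same run of 4 animal numbers had a median r of 0.012 over 21 pairs, against −0.0017 over 63 other pairs. Depth limits the neighbours of low count, such as Rnf26 and Gm49227, more than the 3 loci.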
